A study of Rattus norvegicus with 16 samples.

Results

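Prr7 knockdown was compared with no transduction in primary rat hippocampal neurons, across all genes measured on the arrays. The comparison took the samples whose source label reads knock-down (4 cultures) and those whose source label reads not transduced (4 cultures), which are 8 of the 16 samples of the series. Every culture was grown from embryonic hippocampi of Sprague-Dawley rats, of either sex, taken at embryonic day 18 to 19. Knockdown cultures received a lentivirus made with the pTRIP vector that carries a short hairpin RNA (shRNA) against the coding region of Prr7, and not transduced cultures received no virus, so the groups differ both in the shRNA and in exposure to a lentivirus. The other 2 groups of 4, whose levels are given beside the results, carried the same kind of lentivirus with a nontargeting shRNA, or a FUGW lentivirus that overexpresses PRR7. The design text calls the 4 samples of a group biological replicates. The labels give no promoter for the hairpin, no share of neurons reached by the virus, no age of the cultures at harvest and no statement on pooling.

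PRR7 is a membrane-spanning adaptor found at synapses, and the series concerns its part in the turnover of c-Jun. c-Jun, the product of Jun, is a basic leucine zipper transcription factor that dimerises with Fos and ATF proteins to form AP-1, and in neurons it is known as an effector of the JNK kinases in stress and cell death. Cell division in such cultures is left to glia and progenitor cells, since neurons have left the cell cycle. DNA replication genes are switched on together at the entry to S phase by the E2F transcription factors once the retinoblastoma protein releases them. The integrated stress response is a further programme that turns on genes through the factor ATF4 when amino acids run short or misfolded proteins gather in the endoplasmic reticulum.

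The target of the Prr7 hairpin is given because it defines the treated group. The 19 bases are written 5′ to 3′ as the treatment protocol gives them.
Prr7 shRNA target: cggaatcggacatgtctaa
No probe on the array was named Prr7 by the array design or by RefSeq (0 of 41012 probes for transcripts, of which 21282 matched a RefSeq symbol). Whether an unmatched probe reads Prr7 was not tested, and the group labels were not checked against the level of their target.

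The arrays were 2-colour Agilent arrays with 1 sample in each dye. Each of the 4 arrays of these groups held 2 samples of the same group, replicates 1 and 3 in Cy3 and replicates 2 and 4 in Cy5. The 2 knockdown arrays lay on a slide with the nontargeting arrays, and the 2 not transduced arrays lay on the other slide with the overexpression arrays. Slide and group therefore cannot be told apart in any difference between knockdown and not transduced cultures. The difference between knockdown and nontargeting cultures, which share a slide and both carry an shRNA virus, is given beside many of the results. It shares the knockdown samples and is no independent support. In the 8 samples 52% to 70.5% of probes were well above background, the median net signal ranged from 91.4 to 150 intensity units, and the number of arrays limits the precision.

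Levels are log2 intensities after normalization, differences are knockdown minus not transduced on the log2 scale, and levels of different probes are not comparable. Of 22941 genes tested, 2321 passed at an adjusted p under 0.05 in limma, or 10.1%. Of these 1117 were higher in knockdown cultures, 4.87% of all genes, and 1204 were lower, 5.25%. The difference was at least 2-fold for 379 of them, 185 higher and 194 lower, and the median absolute log2 difference of the genes that passed was 0.66. Every knockdown value lay outside every not transduced value for 2284 of the 2321, while 29.6% of all genes had that arrangement. The median log2 difference over all genes was 0.0048. Of the genes that passed, 48.1% were higher. When each channel was only centred on its median this share was 4.44%, with a median over all genes of -0.282, and with the deposited series matrix it was 82%, with a median of 0.201. The directions below are thus relative to a scale in which the distributions of all arrays were made alike.

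The root mean square log2 distance over genes was 0.374 to 0.477 between a knockdown and a not transduced sample. It was 0.128 to 0.309 between knockdown samples and 0.220 to 0.377 between not transduced samples, a range that just meets that between the groups. Without the knockdown array of replicates 1 and 2, 1025 genes passed, of which 863 were among the 2321. Without that of replicates 3 and 4, 1122 passed, of which 977 were among them. Without the not transduced array of replicates 1 and 2, 777 genes were lower in place of 1204. The spread of all genes and the 2321 that passed are shown in the plot of difference against level.

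**Figure D1:**
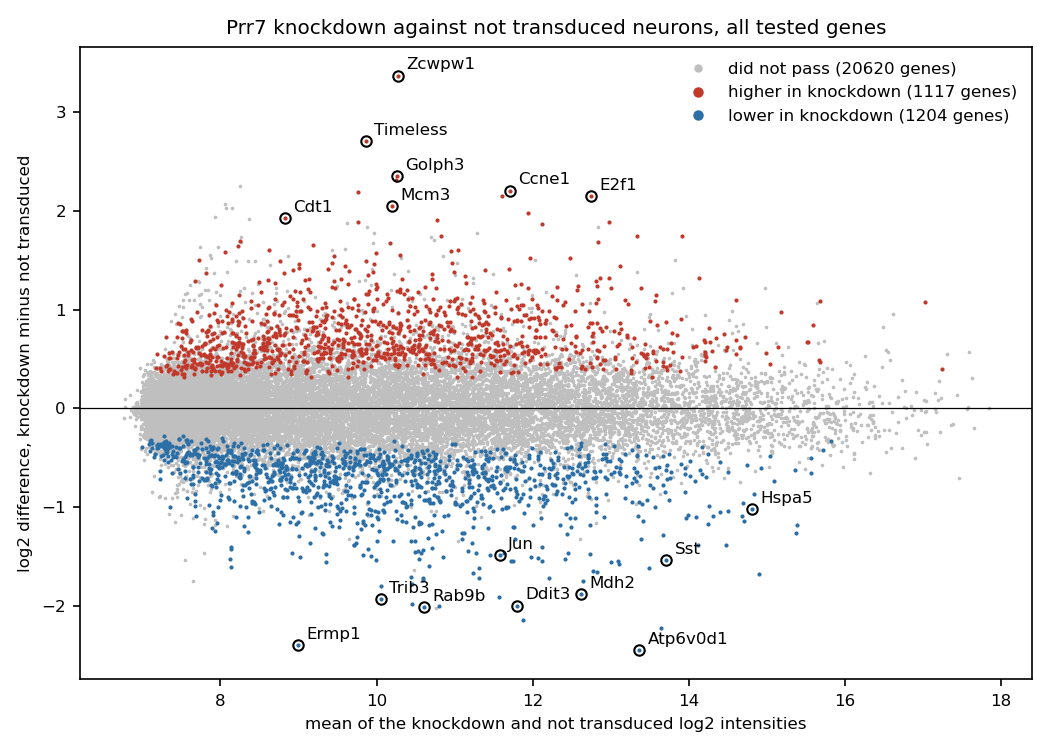
Log2 difference, knockdown minus not transduced (vertical axis), against the mean log2 intensity of the 2 groups (horizontal axis), 1 point per gene. Red points are the 1117 genes that passed higher in knockdown, blue points the 1204 that passed lower, grey points the rest, and circles mark named genes. Changes of both signs occur from dim to bright genes.

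Among the 30 genes with the largest changes, 15 in each direction, 9 of the 15 rises were in genes of G1 and S phase, and stress response, endosomal and mitochondrial genes were among the falls. The largest rise was that of Zcwpw1, a histone methylation reader known from meiosis, with 11.99, 11.92, 12.05 and 11.87 in knockdown cultures, against 8.88, 8.70, 8.28 and 8.51 in not transduced cultures. The groups did not overlap, which the choice of all 30 genes required. The log2 difference was 3.37 ± 0.15 (SE, adjusted p = 1.34e-08). A further Zcwpw1 probe also rose, by 2.06. The nontargeting mean of Zcwpw1 was 10.53 and the overexpression mean 8.66, so both shRNA groups stood above both groups of the other slide, and knockdown highest.

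Golph3, a Golgi phosphoinositide reader, and Stk25, a Golgi-associated kinase, were next among rises outside the cell cycle. Golph3 had 11.39, 11.54, 11.20 and 11.61 in knockdown cultures, against 8.32, 9.16, 8.97 and 9.88 in not transduced cultures. Stk25 had 11.49, 11.42, 11.19 and 11.51 in knockdown cultures, against 8.42, 8.88, 9.22 and 9.85 in not transduced cultures. Their differences were 2.35 ± 0.70 (adjusted p = 0.0443) and 2.31 ± 0.63 (adjusted p = 0.0301). Against nontargeting cultures they were 0.15 and 0.08, which did not pass (adjusted p = 0.912 and 0.952). Golph3 did not pass when any of 7 of the 8 samples was left out, all except not transduced replicate 4 (adjusted p up to 0.107), and it did not pass without any single array (up to 0.195). Stk25 did not pass without knockdown replicate 4 or without not transduced replicate 1 or 3 (adjusted p up to 0.0746), nor without either knockdown array or the not transduced array of replicates 1 and 2 (up to 0.181).

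Kcnip4, a calcium-binding partner of Kv4 potassium channels (1.89), Eftud2, a spliceosomal GTPase (1.87, values in 3 not transduced samples), and Sdc1, a heparan sulphate proteoglycan of the cell surface (1.75), also rose. Eftud2 rested on 1 of 2 probes, since the other gave 0.05 and did not pass. Against nontargeting cultures Sdc1 differed by 1.97 (adjusted p = 1.02e-05), while Kcnip4 (0.49, adjusted p = 0.292) and Eftud2 (0.21, adjusted p = 0.325) did not pass. Eftud2 was at 13.05 in knockdown, 12.84 in nontargeting and 12.89 in overexpression cultures (values in 2 samples), against 11.20 in not transduced cultures. Overexpression minus not transduced was 1.71 for Eftud2 (adjusted p = 0.0081), the only gene that passed in that comparison.

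The largest fall was that of Atp6v0d1, a subunit of the membrane sector of the vacuolar proton pump that acidifies lysosomes and synaptic vesicles. It had 12.14, 11.97, 12.30 and 12.16 in knockdown cultures, against 14.52, 14.71 and 14.54 in not transduced cultures (values in 3 samples), a difference of -2.45 ± 0.13 (adjusted p = 8.32e-07). Nontargeting (14.81, values in 2 samples) and overexpression cultures (14.60) were at the not transduced level, so the knockdown group stood apart from all 3 others. The same arrangement held for Ermp1, a metallopeptidase of the endoplasmic reticulum (7.79 in knockdown, against 10.53, 10.21 and 10.19 in nontargeting, overexpression and not transduced cultures). Its other probe did not show it (-0.05, adjusted p = 0.82). Marchf8, a membrane-bound ubiquitin ligase, was at 9.80 in knockdown, against 12.12, 11.79 and 11.79 in the other groups in that order, again on 1 of 2 probes (-0.31 at the other, adjusted p = 0.24).

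Further genes whose fall set knockdown apart from all 3 other groups were Txndc17, a thioredoxin-like reductase (-1.98), Mdh2, the mitochondrial malate dehydrogenase (-1.88), Dynlrb1, a dynein light chain (-1.62), Ppp2r1b, a scaffold subunit of protein phosphatase 2A (-1.60), and Ina, the neurofilament protein alpha-internexin (-1.57, values in 3 knockdown samples). Against nontargeting cultures these differed by -2.50, -1.93, -2.05, -1.38 and -1.55, and all 5 passed. Dynlrb1 did not pass without the not transduced array of replicates 3 and 4 (-1.51, adjusted p = 0.0663). Ppp2r1b was -0.99 without the knockdown array of replicates 3 and 4 (adjusted p = 0.00243), since its values were 10.51, 10.45, 9.18 and 9.34 in knockdown replicates 1 to 4. Ina did not pass without either knockdown array (adjusted p up to 0.0544).

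Ubxn2a, an adaptor of the p97 ATPase, was low in both shRNA groups, which share a slide and a kind of virus that cannot be told apart here. It had 9.01, 9.06, 9.22 and 9.32 in knockdown cultures, against 10.93, 11.10, 10.97 and 10.82 in not transduced cultures, and the nontargeting mean was 9.04 and the overexpression mean 10.88. Its other probe gave -0.14 and did not pass. RT1-CE5, a class I histocompatibility gene (-1.73, and -1.07 against nontargeting), rested on 1 of 2 probes in the same way (-0.15 at the other), and as a member of a family of near-identical genes its probe may read more than 1 of them. All 30 genes are shown by sample in the plot of the largest changes.

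**Figure D2:**
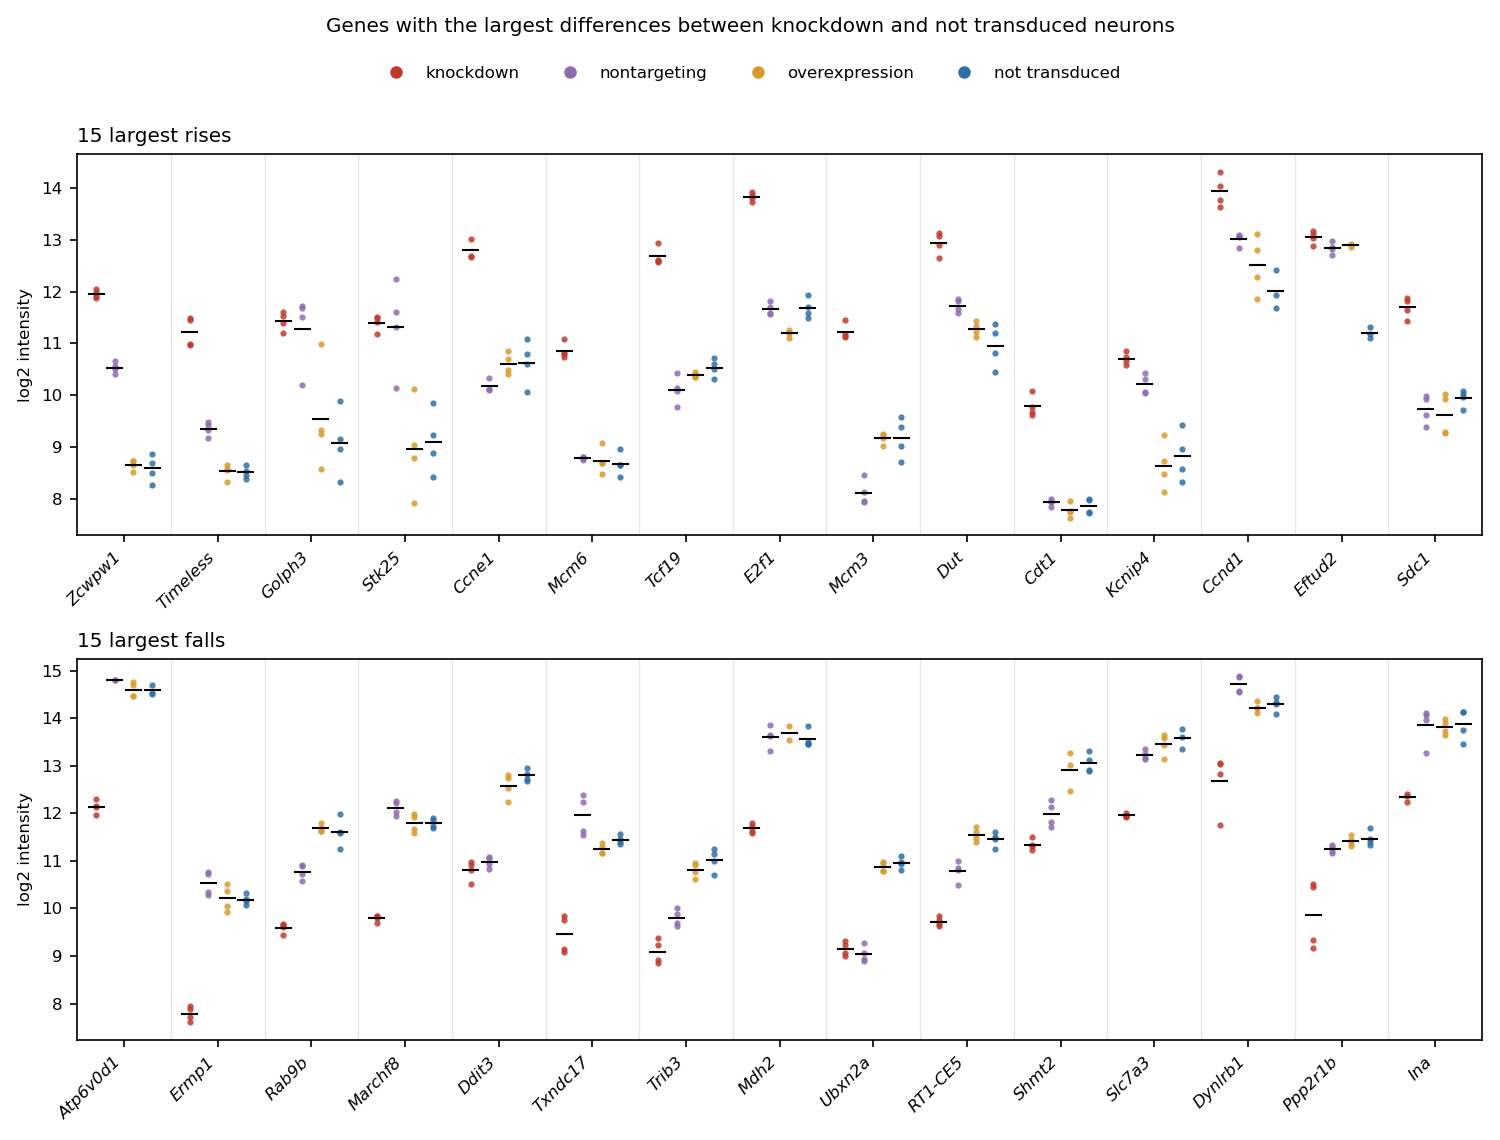
Log2 intensity (vertical axis) of the 15 genes with the largest rises (top) and the 15 with the largest falls (bottom) in knockdown, nontargeting, overexpression and not transduced cultures. Points are samples and bars are group means. Knockdown stands apart from the other 3 groups for genes such as Mcm3 and Atp6v0d1, whereas Golph3, Stk25, Ddit3 and Ubxn2a have similar levels in knockdown and nontargeting cultures.

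Genes of DNA replication were higher in knockdown cultures. Of 44 measured genes of origin licensing and the replication fork 26 rose (59.1%, against 4.87% of all genes) and 0 fell in limma (0 at an unadjusted p under 0.05), with a median log2 difference of 0.60. Against nontargeting cultures 22 of the 44 were higher and 1 lower, where 10.5% of all genes were higher and 11% lower. The list and its members were chosen with results of these data known.

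The replicative helicase is the MCM ring, loaded on origins in G1 by CDT1 and held in check by geminin. Mcm3 (probe at chromosome 9, 19538668 to 19538727, rn4) had 11.13, 11.18, 11.45 and 11.15 in knockdown cultures, against 9.39, 9.59, 9.02 and 8.72 in not transduced cultures. Every knockdown value lay above every not transduced value, which the choice of the largest changes required. The fold was 4.13 (difference 2.05 ± 0.23, adjusted p = 7.02e-05). A further Mcm3 probe rose by 0.89. The nontargeting mean of Mcm3 was 8.12, below the not transduced mean of 9.18. Mcm6 (chromosome 13, 41052148 to 41052207) had 10.81, 10.74, 11.08 and 10.80 in knockdown cultures, against 8.42, 8.66, 8.96 and 8.65 in not transduced cultures, a difference of 2.19 ± 0.19 (adjusted p = 7.79e-06), and a nontargeting mean of 8.80. Mcm2 (1.03), Mcm4 (0.61) and Mcm5 (0.95) rose as well, Mcm4 and Mcm5 being well above background in 2 of 4 not transduced samples. Mcm4 did not pass without either knockdown array (adjusted p up to 0.0896). Mcm7, the remaining ring subunit, gave 0.11 (adjusted p = 0.71).

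Cdt1 had 9.78, 9.62, 10.08 and 9.67 in knockdown cultures, against 7.98, 7.73, 7.99 and 7.75 in not transduced cultures, a difference of 1.93 ± 0.15 (adjusted p = 2.69e-06), and a nontargeting mean of 7.93. Its inhibitor geminin, Gmnn, rose by 0.99, and Orc1, a subunit of the origin recognition complex, by 0.63. Cdc45, which joins the ring to make the active helicase, rose by 1.54 (adjusted p = 6.65e-07). Timeless, which stabilises stalled forks, had 11.44, 11.49, 10.96 and 10.98 in knockdown cultures, against 8.65, 8.54, 8.46 and 8.39 in not transduced cultures, and at 6.54-fold was the largest change of the list. Its nontargeting mean was 9.35, between the knockdown and not transduced means.

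The catalytic subunits of DNA polymerase delta, Pold1 (1.67), and epsilon, Pole (1.28), rose, as did the subunits Chaf1b (1.60, values in 3 knockdown samples) and Chaf1a (1.00) of the factor that places histones behind the fork. Prim1, the primase, rose by 1.52 with values in 2 knockdown samples, and a further probe gave 1.55. Against nontargeting cultures Prim1 gave 0.17 (adjusted p = 0.474). Fen1 (0.37), Lig1 (0.61, values in 3 knockdown samples) and Rfc1 (0.06), which act in joining fragments and loading the sliding clamp, did not pass, though Lig1 passed without knockdown replicate 4 or its array. The clamp itself, Pcna, gave 0.72. It passed (adjusted p = 0.0433) but not when any sample other than knockdown replicate 1 was left out (up to 0.106) or either knockdown array (up to 0.183), with values in 2 not transduced samples. Leaving out the knockdown array of replicates 1 and 2 left 15 members of the list higher, and leaving out that of replicates 3 and 4 left 17. In those fits 455 of all 22754 and 499 of all 22857 genes were higher.

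The promoters of these genes were read from RefSeq (GRCr8), 250 bases before to 50 after the start site, and searched on both strands for the words TTTGGCGC, TTTCGCGC, TTTCCCGC and TTTGCCGC, which the E2F factors are known to bind. Of the 26 members that rose 22 had a promoter in the table and 12 of those 22 held a word (54.5%). Among the 18 that did not pass, 6 of 17 held one (35.3%). Counted by promoter, the share was 2.14% of all 33469 promoters. By gene it was 3.96% of tested genes with a promoter, 8.99% of those that rose and 3.68% of those that fell. For 4 members of the list with large rises that held a word, a promoter with it is shown in the direction of the gene, with the words in capitals. In Mcm6 both words share 4 bases.
Mcm3 promoter (chr9:30733697-30733996, minus strand): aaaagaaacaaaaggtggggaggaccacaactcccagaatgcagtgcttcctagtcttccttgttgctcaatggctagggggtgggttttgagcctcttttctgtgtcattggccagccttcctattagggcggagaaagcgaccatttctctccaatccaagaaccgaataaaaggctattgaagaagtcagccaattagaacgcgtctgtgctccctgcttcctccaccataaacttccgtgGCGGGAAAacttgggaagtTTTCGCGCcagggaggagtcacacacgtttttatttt
Mcm6 promoter (chr13:42404303-42404602, minus strand): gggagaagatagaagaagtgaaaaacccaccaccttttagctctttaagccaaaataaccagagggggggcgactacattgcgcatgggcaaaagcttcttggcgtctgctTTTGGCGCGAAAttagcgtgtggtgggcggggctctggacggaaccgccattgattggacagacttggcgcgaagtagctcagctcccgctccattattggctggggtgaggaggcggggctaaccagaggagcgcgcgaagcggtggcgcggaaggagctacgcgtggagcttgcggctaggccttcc
Cdt1 promoter (chr19:67528999-67529298, plus strand): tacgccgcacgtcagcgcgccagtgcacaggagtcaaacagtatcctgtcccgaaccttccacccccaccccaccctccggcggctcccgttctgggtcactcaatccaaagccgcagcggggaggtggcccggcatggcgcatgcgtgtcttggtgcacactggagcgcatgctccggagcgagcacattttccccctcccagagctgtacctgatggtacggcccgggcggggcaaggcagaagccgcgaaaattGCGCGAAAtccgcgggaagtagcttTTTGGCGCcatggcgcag
Timeless promoter (chr7:1239200-1239499, plus strand): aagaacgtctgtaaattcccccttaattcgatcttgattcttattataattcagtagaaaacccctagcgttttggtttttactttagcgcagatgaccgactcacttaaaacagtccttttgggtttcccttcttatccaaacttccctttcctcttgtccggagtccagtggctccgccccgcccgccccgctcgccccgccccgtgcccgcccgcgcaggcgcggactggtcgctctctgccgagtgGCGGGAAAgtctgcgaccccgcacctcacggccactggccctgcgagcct
A match describes these letters only, and binding was not measured.

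Of 28 measured genes that control entry to S phase 9 rose (32.1%, against 4.87% of all genes) and 2 fell (7.14%, against 5.25%). With channels only centred on their medians 5 rose and 6 fell, where 176 of all 22941 genes rose and 3784 fell. Without the knockdown array of replicates 1 and 2, 5 rose, where 455 of all 22754 genes rose. E2f1 itself (chromosome 3, 145032617 to 145032676) had 13.73, 13.87, 13.91 and 13.80 in knockdown cultures, against 11.50, 11.60, 11.70 and 11.93 in not transduced cultures, a difference of 2.15 ± 0.12 (adjusted p = 1.39e-07), with nontargeting (11.67) and overexpression (11.20) means near or below the not transduced mean. A further E2f1 probe rose by 0.67. Ccne1, cyclin E1, had 12.69, 13.02 and 12.67 in knockdown cultures (values in 3 samples), against 10.06, 10.60, 10.79 and 11.08 in not transduced cultures, and a further probe rose by 1.33. Its nontargeting mean was 10.18. Ccne2, cyclin E2, rose by 1.25, and 2 of 4 not transduced samples were well above background. Tcf19, a gene of late G1, rose by 2.15, with a nontargeting mean of 10.11 beside a knockdown mean of 12.68. Ccnd1, cyclin D1, which with its kinase inactivates the retinoblastoma protein, had 14.31, 14.03, 13.63 and 13.76 in knockdown cultures, against 12.42, 11.93 and 11.68 in not transduced cultures (values in 3 samples) (1.88 ± 0.29, adjusted p = 0.00119). Its nontargeting mean of 13.01 lay between, with a knockdown minus nontargeting difference of 0.92 (adjusted p = 0.0315). Rb1, the retinoblastoma gene, fell by 1.00 on the log2 scale (adjusted p = 0.000417), and -0.65 at a further probe passed too. Ccnd2, cyclin D2, was the other member that fell (-0.90). It did not pass without the not transduced array of replicates 1 and 2 (adjusted p = 0.0613). Cdk4 (0.12, values in 2 knockdown samples) and Myc (0.05) did not pass.

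Of 20 genes of nucleotide supply 4 rose (20%, against 4.87% of all genes) and 0 fell (0 at an unadjusted p under 0.05). Dut, which clears dUTP, had 12.64, 12.89, 13.13 and 13.07 in knockdown cultures, against 10.46, 10.81, 11.20 and 11.36 in not transduced cultures. Its nontargeting mean of 11.73 lay between, with a knockdown minus nontargeting difference of 1.20 (adjusted p = 0.000298). Tyms, thymidylate synthase (1.11), and Dctpp1, a dCTP pyrophosphatase (0.84), were also among the 4. Of 23 DNA repair genes 10 rose (43.5%, against 4.87% of all genes) and 0 fell (1 at an unadjusted p under 0.05). With channels only centred on their medians 2 rose, beside 176 of all 22941 genes. In Cy3 samples alone 2 rose, beside 285 of all 22926 genes. With each array as 1 value 5 rose, beside 498 of all 22941 genes. Leaving out the knockdown array of replicates 1 and 2 left 5 repair genes higher, and leaving out that of replicates 3 and 4 or the not transduced array of replicates 1 and 2 left 6. Over all genes 455 of 22754, 499 of 22857 and 791 of 22832 were higher in those fits, in that order. The repair genes that rose included Exo1, an exonuclease of mismatch repair (1.11), and the checkpoint kinase Chek1 (0.76). Parp1 (0.18) and Xrcc1 (0.23) did not pass.

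Of 31 measured genes of mitosis 2 rose and 0 fell (4 at an unadjusted p under 0.05), or 6.45% higher, near the 4.87% of all genes, and the median was -0.01. The members that rose were Ccna2, cyclin A2, which also acts in S phase (1.21, with 0.60 and no pass at another probe), and the spindle checkpoint gene Mad2l1 (0.55). Ccna2 did not pass without the not transduced array of replicates 3 and 4 (adjusted p = 0.0509). Mad2l1 did not pass in 5 of 8 fits that left out 1 sample, those without knockdown replicate 2, 3 or 4 or not transduced replicate 1 or 4 (up to 0.0682), nor without the knockdown array of replicates 3 and 4 or either not transduced array (up to 0.276). Cdk1, the mitotic kinase, had 10.37, 10.79, 11.16 and 10.80 in knockdown cultures, against 9.91, 10.36, 10.37 and 9.64 in not transduced cultures, groups that overlap, with a difference of 0.71 ± 0.36 (adjusted p = 0.241). Top2a, the topoisomerase of mitotic chromosomes, gave 0.03 (adjusted p = 0.971), and Cdc20, an activator of anaphase, -0.50 (adjusted p = 0.0541). Cdc20 passed as lower with the replicate number as a block (adjusted p = 0.0323), and also without knockdown replicate 3, not transduced replicate 4 or the knockdown array of replicates 3 and 4. Against nontargeting cultures, 10 of the 31 were higher and 1 lower, beside 10.5% of all genes higher and 11% lower. The difference of this list from the replication list was not tested.

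Markers of neural progenitors, astrocytes and the oligodendrocyte lineage passed as higher at shares near or below the 4.87% of all genes. Of 15 neural progenitor markers 0 rose and 2 fell in limma (13.3%, against 5.25% of all genes). With a rise, 1 of the 15 had an unadjusted p under 0.05. Of 20 astrocyte markers 1 rose and 1 fell (5% each way). Of 12 oligodendrocyte lineage markers 0 rose (1 at an unadjusted p under 0.05) and 1 fell (8.33%). Among other non-neuronal lists, 1 of 12 microglia markers (8.33%) and 1 of 14 fibroblast and meningeal markers (7.14%) rose. Of 7 vascular markers 0 rose. Against nontargeting cultures 2 of the 15 progenitor, 4 of the 20 astrocyte and 3 of the 12 oligodendrocyte lineage markers were higher. In the same order 0, 1 and 0 were lower, beside 10.5% of all genes higher and 11% lower. The mean log2 level of the progenitor list was 9.44 to 9.50 in knockdown cultures, against 9.29 to 9.69 in not transduced cultures, that of the astrocyte list 12.04 to 12.14 in knockdown cultures, against 11.81 to 12.37 in not transduced cultures, and that of the oligodendrocyte list 8.81 to 8.99 in knockdown cultures, against 8.95 to 9.07 in not transduced cultures. In bulk samples, fewer cells of a type and less RNA per cell cannot be told apart.

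Genes of the integrated stress response were lower in knockdown cultures. Of its 28 measured sensors, factors and ATF4 targets 10 fell (35.7%, against 5.25% of all genes) and 1 rose, with a median log2 difference of -0.45. Against nontargeting cultures 6 of the 28 were lower and 1 higher, with a median of -0.06, beside 11% of all genes lower and 10.5% higher. Ddit3, the factor CHOP that carries the response towards cell death (chromosome 7, 67251675 to 67252036, rn4), had 10.91, 10.51, 10.98 and 10.82 in knockdown cultures, against 12.69, 12.83, 12.95 and 12.73 in not transduced cultures. The groups did not overlap, which the choice of the largest changes required, and knockdown was 3.99-fold lower (-2.00 ± 0.16, adjusted p = 2.69e-06). Nontargeting cultures were nearly as low, at 10.98, with a knockdown minus nontargeting difference of -0.17 (adjusted p = 0.506), and overexpression cultures were at 12.58.

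Atf3, induced by ATF4, showed the same arrangement, with 10.28, 10.01, 10.85 and 10.90 in knockdown cultures, against 11.92 and 12.32 in not transduced cultures (values in 2 samples) and a nontargeting mean of 10.57. It did not pass without the knockdown array of replicates 1 and 2 (-1.24, adjusted p = 0.061). Atf5, a related factor, was at 14.23 and 13.91 in the 2 knockdown samples with values, against 16.14, 15.71, 15.90 and 15.23 in not transduced cultures, and its nontargeting mean was 14.13. Eif2ak3, the kinase PERK that senses misfolded protein, fell by 1.36 on the log2 scale (adjusted p = 0.00127), with a nontargeting mean of 8.96 beside a knockdown mean of 9.06.

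For other members knockdown was also lower than nontargeting. Trib3, a pseudokinase that restrains the response, had 8.91, 8.85, 9.24 and 9.38 in knockdown cultures, against 10.69, 11.15, 11.00 and 11.24 in not transduced cultures, and its nontargeting mean of 9.80 lay between the groups (difference from nontargeting -0.71, adjusted p = 0.0104). Ppp1r15a, the phosphatase subunit GADD34 that ends the translation block, was at 10.55 in knockdown, against 12.01, 11.63 and 11.91 in nontargeting, overexpression and not transduced cultures. Cebpb, a partner of ATF4, fell by 0.57 on the log2 scale and was -0.65 against nontargeting. It did not pass without the knockdown array of replicates 1 and 2 (adjusted p = 0.0516). Atf4 itself gave -0.34 ± 0.13 (adjusted p = 0.113) and Chac1, a glutathione-degrading target, -1.16 ± 0.38 (adjusted p = 0.0691). Neither passed, but Chac1 passed with the replicate number as a block (-1.16, adjusted p = 0.04).

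Genes that supply amino acids to the ribosome fell as well. Of 19 measured cytosolic aminoacyl-tRNA synthetases, which load amino acids onto their tRNAs, 7 fell (36.8%, against 5.25% of all genes) and 1 rose. The median was -0.42. Aars1, for alanine, had 12.36, 12.16, 12.43 and 12.20 in knockdown cultures, against 13.37, 13.13, 13.53 and 13.32 in not transduced cultures, a difference of -1.05 ± 0.11 (adjusted p = 5.18e-05). Its nontargeting mean was 13.37, so knockdown stood below both. Iars1 for isoleucine (-0.60, and -0.90 at a further probe), Tars1 for threonine (-1.16), Lars1 for leucine (-0.75, with -0.46 and no pass at another probe) and Cars1 for cysteine (-0.90) fell too. Cars1 did not pass without the knockdown array of replicates 1 and 2 or the not transduced array of replicates 3 and 4 (adjusted p up to 0.0894). Against nontargeting, 5 of the 19 were lower, beside 11% of all genes. Without the knockdown array of replicates 1 and 2, 4 synthetases and 6 members of the stress response list passed and were lower. In that fit 570 of all 22754 genes were lower.

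The word TTGCATCA, which ATF4 with a C/EBP partner is known to bind, was searched in the same promoters on both strands. Of the 8 synthetases that passed 7 had a promoter, and 4 of these 7 genes held the word (57.1%). Among those that did not pass, 3 of 10 genes with a promoter held it (30%). Counted by promoter, the share was 0.795% of all promoters. By gene it was 0.632% of tested genes with a promoter, 1.65% of those that fell and 0.529% of those that rose. In the stress response list, 0 of 9 members with a promoter that passed and 6 of 16 of the rest held it. For the 4 synthetases that passed and held the word, a promoter with it is shown in the direction of the gene, with the word in capitals.
Aars1 promoter (chr19:55908232-55908531, plus strand): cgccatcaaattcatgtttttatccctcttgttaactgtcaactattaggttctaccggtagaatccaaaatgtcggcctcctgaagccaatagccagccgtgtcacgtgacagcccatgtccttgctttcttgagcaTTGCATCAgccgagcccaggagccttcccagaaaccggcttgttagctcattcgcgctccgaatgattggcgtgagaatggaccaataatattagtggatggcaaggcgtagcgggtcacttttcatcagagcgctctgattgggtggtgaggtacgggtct
Cars1 promoter (chr1:208225320-208225619, minus strand): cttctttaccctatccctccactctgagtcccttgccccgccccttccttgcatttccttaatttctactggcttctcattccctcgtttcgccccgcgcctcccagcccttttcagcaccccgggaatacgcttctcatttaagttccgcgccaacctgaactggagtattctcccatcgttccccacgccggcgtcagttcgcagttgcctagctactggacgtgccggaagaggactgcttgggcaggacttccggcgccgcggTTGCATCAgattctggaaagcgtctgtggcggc
Tars1 promoter (chr2:62114753-62115052, minus strand): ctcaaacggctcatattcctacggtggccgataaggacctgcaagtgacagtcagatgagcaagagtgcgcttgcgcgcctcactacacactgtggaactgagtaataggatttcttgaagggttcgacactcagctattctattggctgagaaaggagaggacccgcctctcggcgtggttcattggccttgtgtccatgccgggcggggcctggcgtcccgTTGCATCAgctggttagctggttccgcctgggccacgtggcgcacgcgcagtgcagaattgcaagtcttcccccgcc
Iars1 promoter (chr17:15193603-15193902, minus strand): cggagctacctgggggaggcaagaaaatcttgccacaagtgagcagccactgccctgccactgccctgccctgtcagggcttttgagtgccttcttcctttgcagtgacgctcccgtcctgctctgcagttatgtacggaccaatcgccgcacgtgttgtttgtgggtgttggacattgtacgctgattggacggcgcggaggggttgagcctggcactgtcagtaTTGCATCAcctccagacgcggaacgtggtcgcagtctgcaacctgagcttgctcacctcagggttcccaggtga
All 4 of these genes fell. The word is absent from the promoters of members that passed in the stress response list within this window only.

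The levels of both groups of genes in all samples are shown in the heat map of replication and stress genes.

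**Figure D3:**
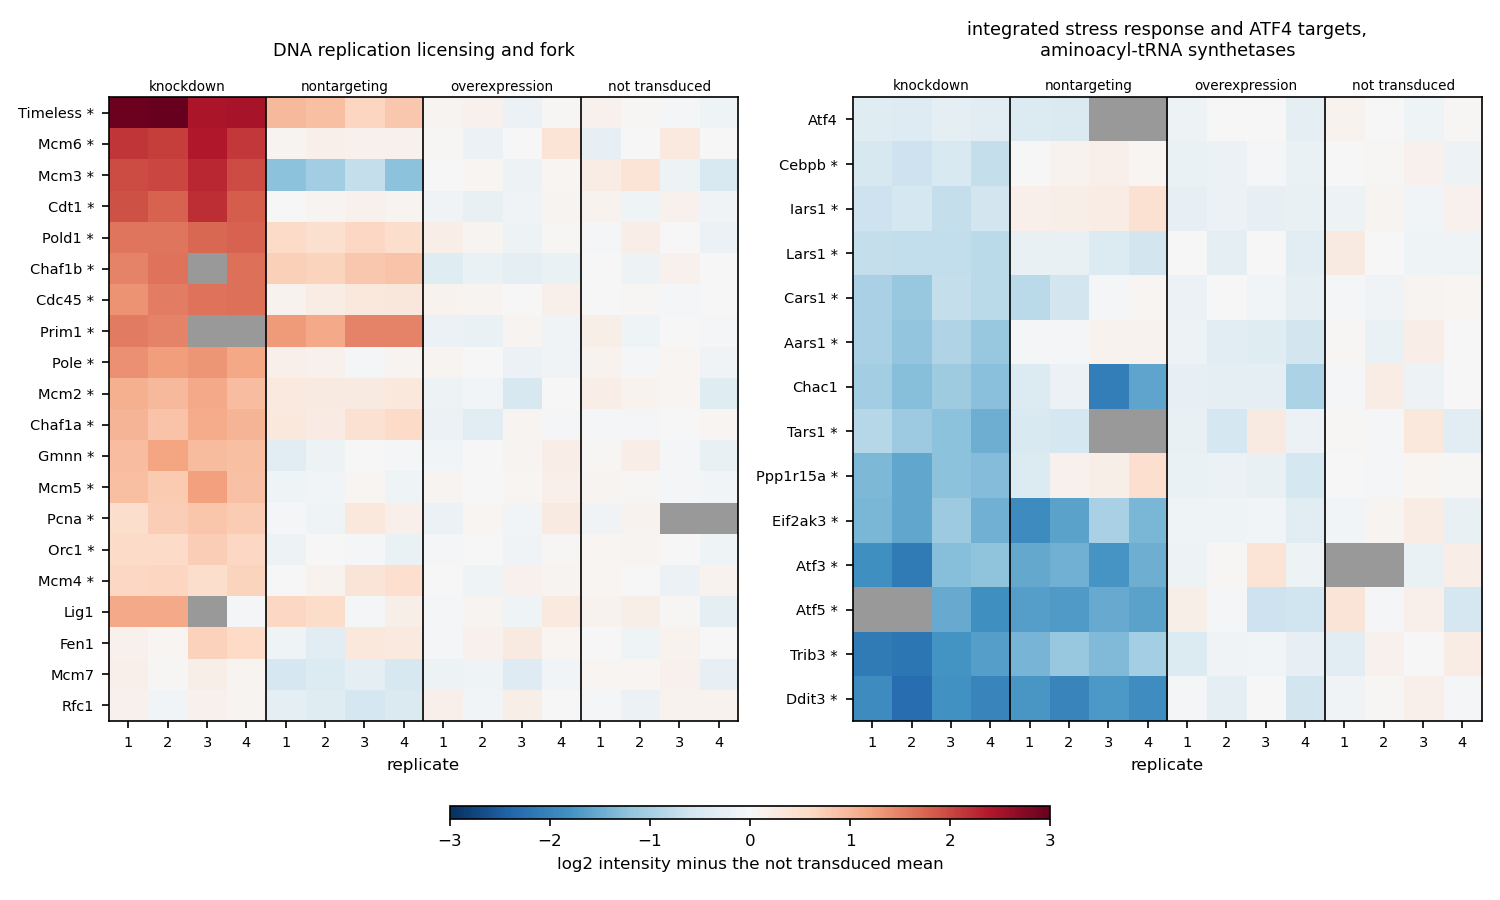
Log2 intensity of each sample minus the not transduced mean (colour, red above and blue below) for the genes named in the text from the lists of replication licensing and the fork (left) and of the integrated stress response and aminoacyl-tRNA synthetases (right). Columns are replicates 1 to 4 of knockdown, nontargeting, overexpression and not transduced cultures, rows are genes in the order of their difference, stars mark genes that passed, and grey marks missing values. Mcm3, Mcm6 and Cdt1 are raised in the knockdown columns relative to the other 3 groups, while Ddit3, Atf5, Atf3 and Eif2ak3 are low in both knockdown and nontargeting columns.

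Serine and one-carbon metabolism supplies glycine and formyl groups, and its mitochondrial branch is a known ATF4 target. Of 24 measured genes of serine, one-carbon and asparagine synthesis 5 fell (20.8%, against 5.25% of all genes). Rises numbered 0 (1 at an unadjusted p under 0.05). Without the knockdown array of replicates 1 and 2, 3 were lower, and without that of replicates 3 and 4, 2 were lower. In those fits 570 of all 22754 and 623 of all 22857 genes were lower. Shmt2, the mitochondrial serine hydroxymethyltransferase, had 11.51, 11.31, 11.33 and 11.23 in knockdown cultures, against 13.32, 13.13, 12.91 and 12.90 in not transduced cultures (-1.72 ± 0.21, adjusted p = 0.000204), with 11.99 in nontargeting cultures. Aldh1l2, a mitochondrial folate enzyme, fell by 1.47 on the log2 scale (and -1.09 at a further probe), and Asns, asparagine synthetase, by 0.68. Asns did not pass without the knockdown array of replicates 3 and 4 (adjusted p = 0.0698). Phgdh, which opens serine synthesis, gave -0.60 (adjusted p = 0.113) and passed as lower without not transduced replicate 4 or its array. Of 17 amino acid transporters 3 fell (17.6%, against 5.25%) and 0 rose (1 at an unadjusted p under 0.05). Slc7a3, a transporter of arginine and lysine, had 12.01, 11.95, 11.95 and 11.93 in knockdown cultures, against 13.78, 13.35 and 13.61 in not transduced cultures (values in 3 samples), and its nontargeting mean was 13.23. Slc3a2, the heavy chain shared by several transporters, fell by 1.04. The other was Slc7a1 (-0.69, with 0.10 and no pass at another probe), which did not pass without either knockdown array or the not transduced array of replicates 3 and 4 (adjusted p up to 0.145).

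Chaperones of the endoplasmic reticulum were among the falls, 6 of 28 measured (21.4%, against 5.25% of all genes). Rises numbered 0 (1 at an unadjusted p under 0.05). Hspa5, the chaperone BiP, had 14.22, 14.13, 14.47 and 14.37 in knockdown cultures, against 15.16, 15.34, 15.47 and 15.30 in not transduced cultures, a difference of -1.02 ± 0.16 (adjusted p = 0.00206). Its nontargeting mean was 14.73 (values in 2 samples), and knockdown minus nontargeting (-0.43) did not pass (adjusted p = 0.147). Hsp90b1 (-0.78), the sensor Atf6 (-0.94) and Selenos, of the retrotranslocation machinery (-0.88), fell, while Calr (-0.21, values in 2 not transduced samples) and Pdia6 (-0.01, values in 3) did not pass. In the vacuolar proton pump 3 of 18 subunits fell (16.7%) and 0 rose (0 at an unadjusted p under 0.05), and the median was -0.08. Without the not transduced array of replicates 3 and 4, 1 subunit was lower, beside 875 of all 22623 genes. The 3 that fell included Atp6v0d1 and Atp6v0a1 (-1.75, with values in 2 not transduced samples, and -0.81 at a further probe). Of 36 lysosome and autophagy genes 4 fell (11.1%) and 0 rose (1 at an unadjusted p under 0.05). Without not transduced replicate 4, 8 were lower, beside 1257 of all 22941 genes. The 4 included Mcoln1, a lysosomal calcium channel (-1.04), Atg5 (-0.75) and Map1lc3b, the autophagosome protein LC3B (-1.09). Rab9b, a GTPase of traffic to the Golgi, had 9.44, 9.68, 9.62 and 9.66 in knockdown cultures, against 11.25, 11.60, 11.60 and 11.99 in not transduced cultures, and a further probe fell by 1.04. Its nontargeting mean was 10.77, between the groups. Rab10 fell by 1.10, with 2 further probes at -0.57, which passed, and -0.75, which did not.

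Mitochondrial genes changed singly rather than as lists. Of 34 genes of the tricarboxylic acid cycle and malate shuttle 2 rose (5.88%, against 4.87% of all genes) and 3 fell (8.82%, against 5.25%). Of 41 respiratory chain genes 0 rose (3 at an unadjusted p under 0.05) and 2 fell, or 4.88% lower, against 5.25% of all genes. Mdh2 had 11.62, 11.73, 11.59 and 11.80 in knockdown cultures, against 13.50, 13.85, 13.46 and 13.46 in not transduced cultures, with 13.61 in nontargeting and 13.69 in overexpression cultures (values in 2 samples). Uqcrb, a subunit of complex III, fell by 1.14, and 2 further probes by 1.08 and 1.23. Gapdh, of glycolysis, gave -0.04 (adjusted p = 0.892).

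Jun was lower in knockdown than in not transduced cultures, and its difference from nontargeting cultures did not pass. Its probe (chromosome 5, 115358764 to 115358823, rn4) gave 10.64, 10.49, 11.04 and 11.16 in knockdown cultures, against 11.90, 12.61, 12.56 and 12.19 in not transduced cultures. The groups did not overlap, and the difference was -1.48 ± 0.27 (adjusted p = 0.00303), or 2.8-fold lower. The nontargeting mean was 11.00 and the overexpression mean 12.16, and knockdown minus nontargeting was -0.17 (adjusted p = 0.732). Jun did not pass without the knockdown array of replicates 1 and 2 (-1.21, adjusted p = 0.0512). The arrays read the transcript and not the c-Jun protein.

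Of 16 measured AP-1 factors 5 fell (31.2%, against 5.25% of all genes) and 2 rose (12.5%, against 4.87%). Without the knockdown array of replicates 1 and 2, 2 were lower, beside 570 of all 22754 genes. Junb had 8.72, 8.42, 9.13 and 8.74 in knockdown cultures, against 9.61, 9.61, 9.85 and 9.54 in not transduced cultures, and here nontargeting was highest, at 11.08. Maf fell by 0.85 and Mafg by 0.66. Mafg did not pass without either knockdown array or the not transduced array of replicates 1 and 2 (adjusted p up to 0.0867), and its other probe gave -0.63 and did not pass. Atf2, a dimer partner of c-Jun, rose by 1.27 (adjusted p = 0.0106) but did not pass without any of those same arrays (up to 0.0867). Batf3, the other that rose, gave 0.57 and did not pass without either knockdown array (up to 0.068). Fos had 8.88, 8.70, 9.32 and 9.20 in knockdown cultures, against 10.12, 10.37, 9.42 and 8.95 in not transduced cultures, ranges that overlap, and did not pass (-0.69 ± 0.30, adjusted p = 0.162). Without not transduced replicate 4 it was -0.88 and passed (adjusted p = 0.0355), as it did without the not transduced array of replicates 3 and 4, and its nontargeting mean was 12.56. Jund gave -0.26 (adjusted p = 0.649).

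Of 21 genes of the JNK cascade 2 rose and 2 fell (9.52% each way, beside 4.87% of all genes higher and 5.25% lower). Mapk9, the kinase JNK2, rose by 0.73, with values in 2 not transduced samples, and its 2 other probes gave 0.70, which passed, and -0.02, which did not. Mapk8 (0.31) and Mapk10 (0.19), for JNK1 and JNK3, did not pass. Dusp1, a phosphatase of these kinases, fell by 1.05 (adjusted p = 0.00177). In a list of 20 measured ubiquitin ligases, E2 enzymes and associated genes 1 rose (5%) and 2 fell (10%), beside the same shares of all genes. The 2 that fell were Marchf8 and the p97 adaptor Ubxn2a. Det1 and Cul4a, which work with the ligase of c-Jun that contains COP1, gave 0.28 (adjusted p = 0.478) and -0.27 (adjusted p = 0.201).

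Hrk, a BH3-only activator of neuronal death that c-Jun is known to induce, had 11.06, 11.03, 11.46 and 11.68 in knockdown cultures, against 12.53, 12.94, 12.81 and 13.01 in not transduced cultures. Its difference was -1.52 ± 0.16 (adjusted p = 5.18e-05), and a further probe fell by 1.63. Nontargeting cultures lay between, at 12.27, and knockdown was lower than these too (-0.97, adjusted p = 0.000657). Of 30 apoptosis genes 4 rose and 2 fell (13.3% and 6.67%, beside 4.87% of all genes higher and 5.25% lower). With channels only centred on their medians 0 rose and 8 fell, beside 176 and 3784 of all 22941 genes. Without the knockdown array of replicates 3 and 4, 1 rose, beside 499 of all 22857 genes. Bak1, a pore former of mitochondria, fell by 0.82. Of 29 activity-regulated genes 2 rose and 4 fell (6.90% and 13.8%, beside 4.87% of all genes higher and 5.25% lower). Ier2 had the largest fall (-1.34). Egr4 rose by 1.00, with values in 3 not transduced samples, but not without not transduced replicate 3 (0.66, adjusted p = 0.0999) or without the array of knockdown or of not transduced replicates 3 and 4 (up to 0.136), and Egr1 gave 0.20 (adjusted p = 0.681). Against nontargeting cultures 19 of the 29 were lower and 2 higher, beside 11% of all genes lower and 10.5% higher.

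**Figure D4:**
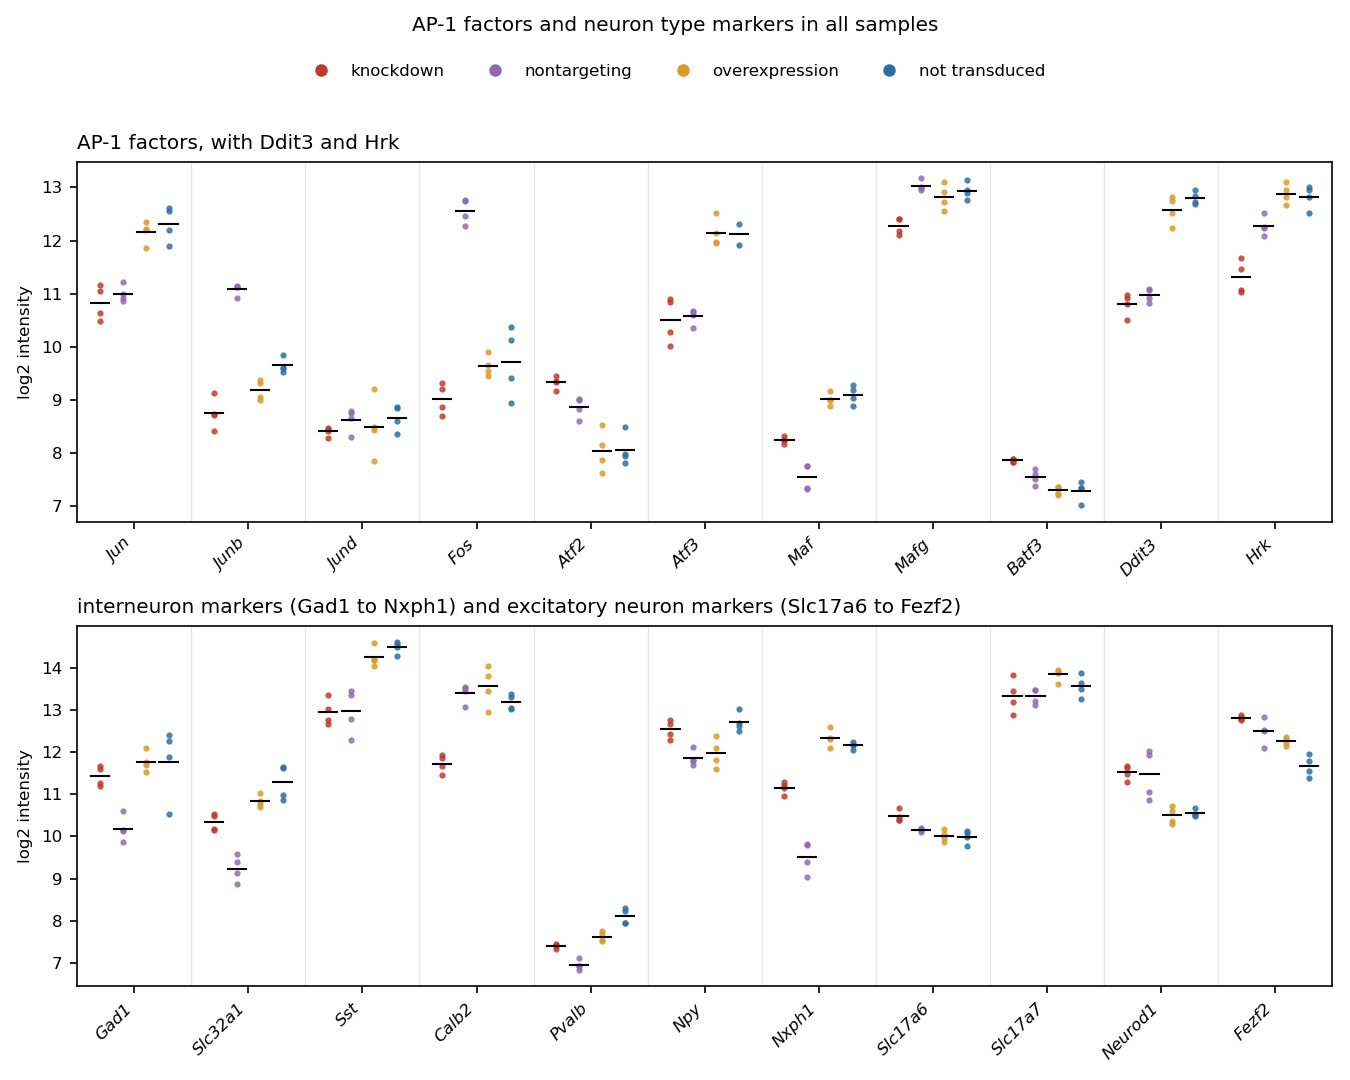
Log2 intensity (vertical axis) of AP-1 factors with Ddit3 and Hrk (top), and of interneuron and excitatory neuron markers (bottom), in knockdown, nontargeting, overexpression and not transduced cultures. Points are samples and bars are group means. Jun, Atf3 and Ddit3 are low in knockdown and nontargeting cultures, Fos and Junb are highest in nontargeting cultures, and Slc32a1 and Nxph1 are lowest in nontargeting cultures.

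Inhibitory interneuron markers were lower in knockdown than in not transduced cultures. Of 22 measured markers 9 fell (40.9%, against 5.25% of all genes) and 1 rose, with a median log2 difference of -0.36. Against nontargeting cultures the count ran the other way, with 12 higher and 1 lower and a median of 0.42. In that comparison 10.5% of all genes were higher and 11% lower. Sst, the peptide somatostatin, had 12.66, 12.75, 13.02 and 13.35 in knockdown cultures, against 14.28, 14.55, 14.50 and 14.60 in not transduced cultures, a difference of -1.54 ± 0.27 (adjusted p = 0.0025), and a nontargeting mean of 12.97. Calb2, the calcium buffer calretinin, had 11.92, 11.86, 11.68 and 11.45 in knockdown cultures, against 13.38, 13.04, 13.31 and 13.03 in not transduced cultures, and here knockdown stood apart from nontargeting (13.39) and overexpression (13.56) as well. Slc32a1, the vesicular GABA transporter, had 10.19, 10.16, 10.53 and 10.49 in knockdown cultures, against 10.99, 10.87, 11.63 and 11.63 in not transduced cultures, with nontargeting lower still at 9.24. It did not pass without the knockdown array of replicates 1 and 2 or the not transduced array of replicates 3 and 4 (adjusted p up to 0.12).

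Nxph1, a neurexin ligand, fell by 1.00 and at a further probe by 1.10. Pvalb, parvalbumin, fell by 0.71, well above background in 2 of 4 knockdown samples. Gad1, which makes GABA, had 11.27, 11.20, 11.67 and 11.60 in knockdown cultures, against 10.54, 11.88, 12.40 and 12.27 in not transduced cultures, ranges that overlap, and none of its 3 probes passed. Npy, neuropeptide Y, did not pass either (-0.17). The member that rose was Gabrd, a GABA-A receptor subunit that excitatory granule cells also express (0.96), and it did not pass without either knockdown array or the not transduced array of replicates 1 and 2 (adjusted p up to 0.129). Without the not transduced array of replicates 3 and 4, 5 interneuron markers were lower, beside 875 of all 22623 genes. Of 26 neuropeptides and granins 5 were lower (19.2%, against 5.25% of all genes) and 1 higher (3.85%, against 4.87%). Of the 5, Sst and Nxph1 are also interneuron markers. Tac1, the precursor of substance P, fell by 1.12, and Pdyn, prodynorphin, rose by 0.97.

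Of 18 excitatory neuron markers 6 rose (33.3%, against 4.87% of all genes) and 1 fell, with a median of 0.20. With channels only centred on their medians 0 rose and 3 fell, beside 176 and 3784 of all 22941 genes. The rises numbered 3 without knockdown replicate 1, without not transduced replicate 3, without the knockdown array of replicates 3 and 4 or without the not transduced array of replicates 1 and 2. They numbered 1 without either of the other arrays. Over all genes the rises numbered 913, 793, 499 and 791 in the former fits, in the order named. Without the knockdown array of replicates 1 and 2 or the not transduced array of replicates 3 and 4, 455 and 853 genes rose. Fezf2, a factor of deep-layer projection neurons, had 12.83, 12.77, 12.87 and 12.79 in knockdown cultures, against 11.56, 11.39, 11.79 and 11.96 in not transduced cultures, and nontargeting cultures were at 12.49. Neurod1, a factor of granule neuron birth, rose by 0.96, to 11.52 in knockdown beside 11.47 in nontargeting cultures. It did not pass without the knockdown array of replicates 1 and 2 or either not transduced array (adjusted p up to 0.124). The vesicular glutamate transporter Slc17a6 rose by 0.49, but gave -0.10 when channels were only centred on their medians, and did not pass without the knockdown array of replicates 1 and 2 or the not transduced array of replicates 3 and 4 (adjusted p up to 0.156). Slc17a7, the transporter of mature hippocampal neurons, gave -0.23 (adjusted p = 0.577). Wfs1, an endoplasmic reticulum protein of CA1 neurons, was the marker that fell (-1.01). Against nontargeting cultures 2 of the 18 were higher and 1 lower, near the 10.5% of all genes higher and 11% lower. General neuronal markers gave 1 rise and 1 fall of 17 measured (5.88% each way), near the 4.87% and 5.25% of all genes. The median of the 17 was -0.16, and 4 of the 17 had a difference above 0, Map2 and Snap25 among them. At an unadjusted p under 0.05 in limma, 1 was higher and 5 were lower. Map2 (0.35), Tubb3 (-0.16, values in 2 not transduced samples) and Snap25 (0.29) did not pass.

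Lists of receptors, channels and synaptic vesicle genes are read beside 4.87% of all genes higher and 5.25% lower. Of 26 glutamate receptors 4 rose (15.4%) and 1 fell, of 15 GABA-A receptor subunits 3 rose (20%) and 0 fell (0 at an unadjusted p under 0.05), of 59 ion channels 7 rose (11.9%) and 1 fell, and of 41 synaptic vesicle and active zone genes 6 rose (14.6%) and 2 fell. With channels only centred on their medians 2 ion channels rose and 5 fell, and 0 synaptic vesicle genes rose and 7 fell. In that fit 176 of all 22941 genes rose and 3784 fell. Leaving out the knockdown array of replicates 1 and 2 left 2 ion channels and 2 synaptic vesicle genes higher, and leaving out that of replicates 3 and 4 or the not transduced array of replicates 1 and 2 left 3 and 3. Over all genes 455 of 22754, 499 of 22857 and 791 of 22832 were higher in those fits, in that order. Grm8, a presynaptic metabotropic receptor, rose by 0.89, and by 0.98 at a further probe. Kcnb2, a delayed rectifier potassium channel, rose by 0.99 (adjusted p = 8.42e-05), and Kcnh1, of the ether-a-go-go family, by 0.98. Rims2, an active zone organiser, rose by 0.79. Grin1 (0.23) and Gria2 (0.12), the obligatory NMDA and a major AMPA receptor subunit, did not pass, nor did the vesicle protein Syp (-0.09). Of 32 postsynaptic density genes 3 rose (9.38%) and 0 fell (1 at an unadjusted p under 0.05).

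The other lists stand beside 4.87% of all genes higher and 5.25% lower. Rises and falls numbered 2 and 1 of 31 for interferon-stimulated genes and RNA sensors (6.45% and 3.23%). They numbered 2 and 2 of 13 for the RNA interference machinery (15.4% each way), and 2 and 2 of 25 for heat shock proteins (8% each way). For NRF2 targets they were 1 and 2 of 22 (4.55% and 9.09%), and for the proteasome 0 and 3 of 34 (8.82% lower). Rab GTPases had 1 and 3 of 45 (2.22% and 6.67%), and cholesterol synthesis 2 and 0 of 26 (7.69% higher). The p53 targets had 2 and 1 of 20 (10% and 5%). For microglia they were 1 and 0 of 12 (8.33% higher), and for vascular cells 0 and 1 of 7 (14.3% lower). For fibroblasts they were 1 and 1 of 14 (7.14% each way). Of the lists with 0 in a direction, at an unadjusted p under 0.05 the proteasome and the vascular markers had 0 higher, cholesterol synthesis 1 lower and the microglia markers 2 lower. The plot of the lists sets all shares beside those of all genes.

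**Figure D5:**
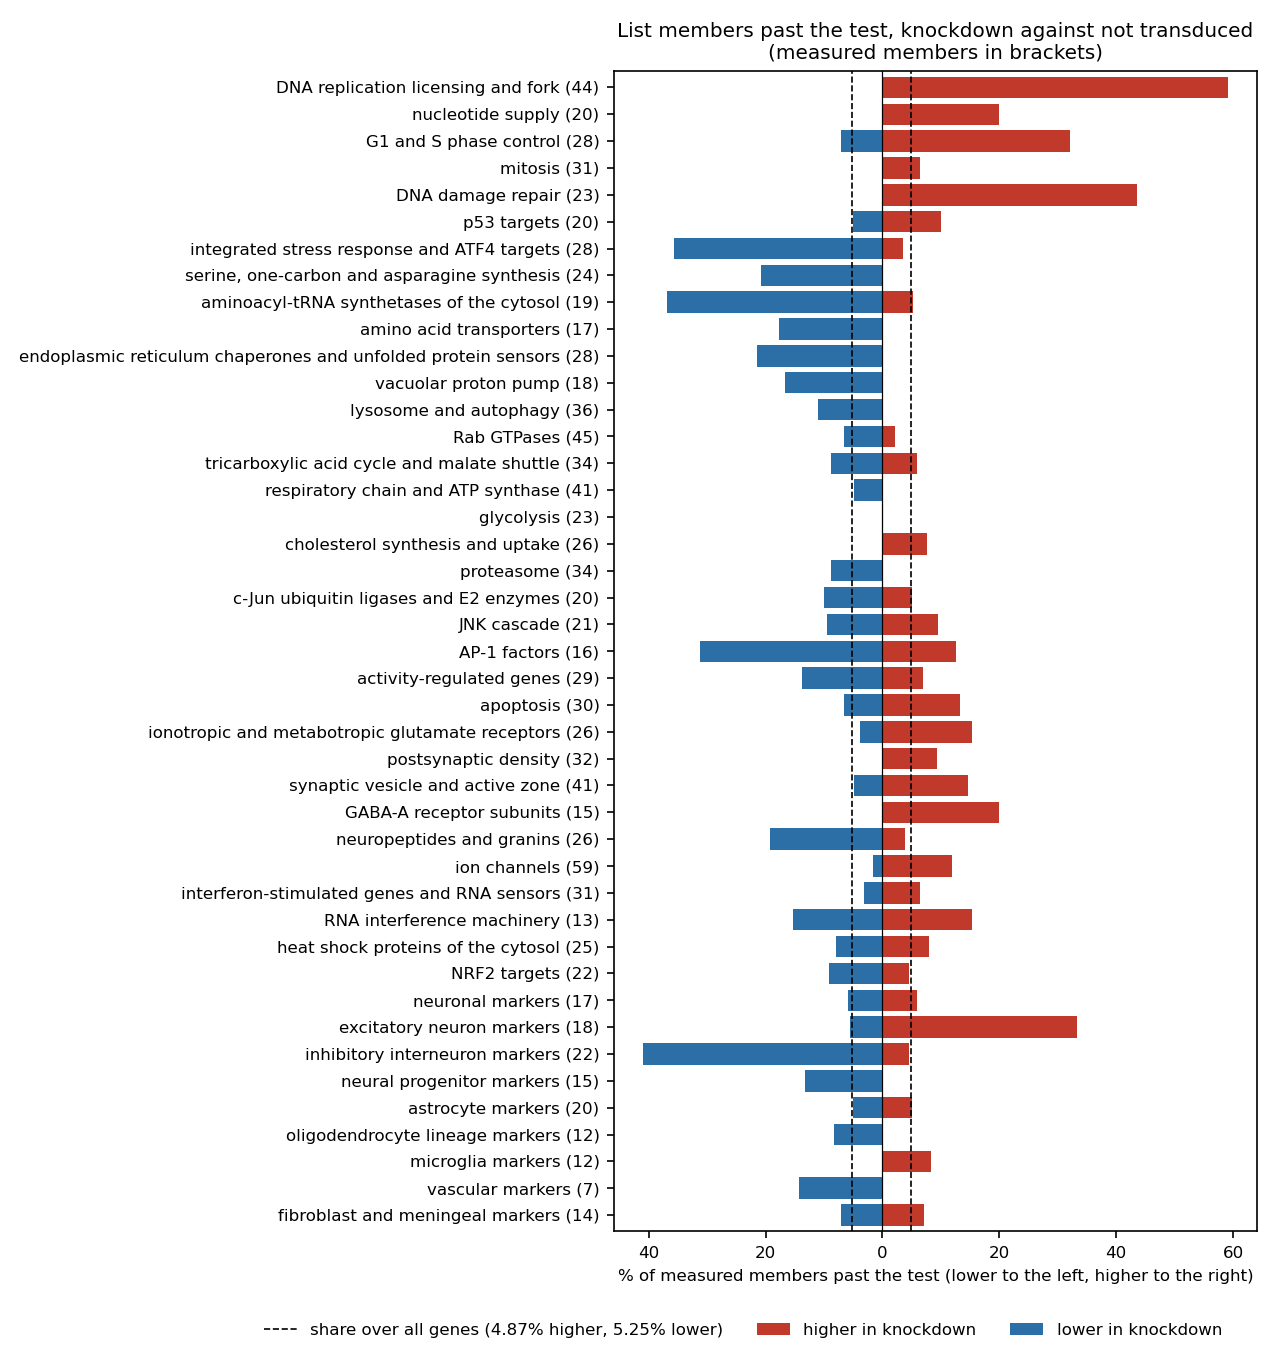
Share of the measured members of each gene list (%, horizontal axis) that passed the test higher in knockdown (red, to the right) or lower (blue, to the left), with the number of measured members in brackets. Dashed lines mark the shares over all genes, 4.87% higher and 5.25% lower. Replication, repair, excitatory neuron and G1 to S phase lists reach furthest to the right, and interneuron markers, aminoacyl-tRNA synthetases, the integrated stress response and AP-1 factors furthest to the left.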

How the data were processed

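Per the file headers, the authors' spot intensities came from Agilent Feature Extraction 10.7.3.1 (also in the submitters' processing notes) on a rat design with rn4 coordinates. Each scanner file holds both dyes, and each sample was read from its labelled dye. The description field names another tissue than the protocols and was not used. The series matrix, as deposited, is on a log2 scale (net median signal, each column centred on its median) and served as an alternative.

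Intensities were background-corrected (normexp, offset 50) and normalized by loess and Aquantile in limma 3.58.1 (R 4.3.3, statmod 1.5.0). Control spots had weight 0 and flagged spots were left out. A probe was kept if it was well above background in 4 or more of 16 samples and had 12 values in all and 2 per group, and the brightest probe stood for each gene. Symbols came from RefSeq (GRCr8) by accession (17783 of 41012 probes) or name (3499). The fit took all 16 samples with group and dye as terms and array as a random block (correlation 0.569). Knockdown minus not transduced was tested with Benjamini-Hochberg adjustment at 0.05, and the code was tested on simulated data. The members and lists were chosen with earlier results of these data known. Genes were named by a rule, the 15 largest rises and falls whose groups did not overlap, with at least 3 values per group, and for each list up to 8 members that passed with the smallest p and 4 of the brightest that did not. A few genes are counted in their lists but not reported by name here. Same-numbered samples deviated together (correlations 0.168, 0.165, 0.265 and 0.188). The main fit has no term for these numbers, which were taken from the titles. They entered only an alternative fit with the replicate number as a block. Figures were drawn with matplotlib 3.10.9 (Python 3.11.15, pandas 2.3.3).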

Additional observations from a re-analysis of the deposited data

Results flagged for a closer look

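Among 54 groups of 4 values, those of the 30 genes with the largest changes in knockdown or not transduced cultures, 1 sample lay far from the others of its group in 3 cases. Tcf19 was at 12.94 in knockdown replicate 3, against 12.57 to 12.62 in the other knockdown samples. Mcm3 was at 11.45 in knockdown replicate 3, against 11.13 to 11.18 in the others. Mdh2 was at 13.85 in not transduced replicate 2, against 13.46 to 13.50 in the others. By the Dixon test used, such a gap arises by chance in about 1 of 20 groups of 4, and in each case the sample lay further from the other group than its fellows did.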

How the results depend on the processing

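All alternatives used the same model unless named, and 22 of the 30 genes with the largest changes passed in the same direction under all 28. The 2321 genes that passed (1117 higher, 1204 lower) became 1027 (498 and 529) with each array as 1 value, 5944 (2955 and 2989) without the array block, 3960 (176 and 3784) with channels only centred on their medians, 3011 (2468 and 543) with the series matrix, 596 (285 and 311) in Cy3 samples alone, 726 (347 and 379) in Cy5 samples alone and 84 (34 and 50) with a 1.5-fold minimum. They became 1025 (455 and 570) and 1122 (499 and 623) without the knockdown array of replicates 1 and 2 or 3 and 4, and 1568 (791 and 777) and 1728 (853 and 875) without the not transduced array of those numbers. Without 1 sample they ranged from 1677 to 2474. The replicate block gave 2927 (1429 and 1498), 2299 of them among the 2321, and ended the call of no gene named in the report, while Cdc20 and Chac1 passed under it. The other alternatives (8 samples alone, processed signals, quantile, offset 16, the filters on dim probes, mean of probes, flagged spots kept) gave 2061 to 2824.

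The 26 replication genes that rose became 16 with each array as 1 value, 12 with median centring, 14 in Cy3 samples, 9 with the fold minimum, and 15 or 17 without a knockdown array. The 10 stress response genes that fell became 16 without the block, 18 with median centring, 5 in Cy3 samples, 2 with the fold minimum and 6 without the knockdown array of replicates 1 and 2. The 7 synthetases that fell became 11 with the 8 samples alone, 12 without the block, 16 with median centring, 4 with the series matrix, 1 in Cy3 samples, 4 in Cy5 samples, 0 with the fold minimum and 4 without the knockdown array of replicates 1 and 2. The 9 interneuron markers that fell became 4 in Cy3 samples, 3 in Cy5 samples, 0 with the fold minimum and 5 without the not transduced array of replicates 3 and 4. The cause was not tested. Slc17a6 reversed (-0.10) with median centring. With 2 arrays per group on 1 slide each, and with dim probes near background, small differences were not detectable.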

Other observations

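The genes below belong to none of the lists and were picked with their values known. Hells, a chromatin remodeller of replicating cells, had 8.92, 9.03, 9.30 and 8.94 in knockdown cultures, against 7.41, 7.34, 7.54 and 7.34 in not transduced cultures. Dscc1, which helps load the clamp for sister chromatid cohesion, had 9.21, 9.31, 9.56 and 9.60 in knockdown cultures, against 8.06, 7.97, 7.82 and 7.43 in not transduced cultures. Spc25, a kinetochore subunit, rose by 1.47 and Nasp, a chaperone of histones, by 1.45. Against nontargeting cultures they differed by 0.73, 1.85, 1.19 and 0.52, of which Nasp did not pass (adjusted p = 0.101). Tfrc, the transferrin receptor that brings iron into cells, rose by 1.32 (1.01 against nontargeting).

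Among falls outside the lists were Vps4a, the ATPase of the ESCRT machinery of endosomes (-1.47), Hgs, which brings that machinery to endosomes (-1.21), Man1b1, a mannosidase of glycoprotein quality control (-1.54), and Sarm1, an NAD-cleaving enzyme of axon degeneration (-1.20). Against nontargeting cultures they differed by -1.09, -0.89 (values in 2 nontargeting samples), -1.26 and -0.84, and all 4 passed. Of the 2321 genes that passed, 946 had no symbol and are not named.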
